A study of Mus musculus with 24 samples.

Results

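The 10 genes described here encode transcription factors of epidermal differentiation: Trp63, Klf4, Grhl1, Grhl3, Ovol1, Prdm1, Gata3, Cebpa, Cebpb and Zfp750. They were chosen by name, with no count as a criterion but with earlier results of these data known, from the 54087 gene symbols of an RNA-Seq count table, and all 10 were among the 17094 genes with enough counts to be tested. The table covers skin of C57BL/6 mouse embryos at E18.5, late in gestation. WT embryos carried both copies of the desmoglein 1 cluster (Dsg1a, Dsg1b and Dsg1c, encoding a desmosomal cadherin of the upper epidermis), HET embryos (Dsg1+/-) carried 1 copy and KO embryos (Dsg1-/-) none, with no other allele or treatment named. The deletion is constitutive, made by CRISPR/Cas9 and carried on from a single founder by backcrossing, and embryos of both sexes were used. Because RNA came from whole dorsal skin, fewer cells of a type and less RNA per cell cannot be told apart, and the counts do not show which cells held a transcript.

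There were 24 libraries, 8 per genotype, of 8.98 M to 20.96 M counts (M, mega). Libraries sharing a title number and genotype were summed to 15 columns, 5 per genotype, each of 15.28 M to 33.68 M counts. Since no label says what a title number stands for, p-values measure the spread between these columns, which may be partly technical. The 2 libraries of WT replicate 2 disagreed with each other. Chi-square over degrees of freedom between their counts was 15.57, against 1.59 to 1.86 for the 8 other numbers with 2 libraries, and Y-linked genes held 338 CPM (counts scaled to the adjusted library size) in one and 0.157 CPM in the other. Xist held 0.275 CPM in the first of these libraries and 574 CPM in the second (Y-linked and Xist values here scaled to total counts). The 2 libraries may thus come from 2 embryos, which the labels do not settle. The main fit counts their sum as 1 WT column, so results are also given without that column. Summed Dsg1a, Dsg1b and Dsg1c held 723 to 933 CPM in WT, 371 to 492 CPM in HET and 0.103 to 0.902 CPM in KO columns (exact two-sided permutation test on log2(CPM + 1), p = 0.00794 for KO vs WT and for HET vs WT, the smallest that 5 against 5 columns can give). Y-linked genes exceeded 100 CPM in 2 of 5 WT columns, including the conflicting one, and in 3 of 5 HET and 3 of 5 KO columns.

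Keratinocytes leave the basal layer, stop dividing and build the spinous, granular and cornified layers under a network of transcription factors. Trp63 encodes p63, which establishes the epidermal lineage and maintains basal cells. Zfp750 is a p63 target that acts with Klf4 to switch on late differentiation genes. The grainyhead-like factors Grhl1 and Grhl3 drive barrier and junction genes, Grhl1 being a known activator of desmosomal cadherin genes and Grhl3 of transglutaminase 1. Ovol1 and Prdm1 are zinc finger repressors of the differentiating layers, Gata3 supports barrier lipid synthesis and hair follicle fate, and the C/EBP factors Cebpa and Cebpb promote exit from the basal state.

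Promoter sequence was at hand for 7 of the 10 genes (250 bases before the annotated start, RefSeq, GRCm38.p6). The Grhl3 promoter is shown because Grhl3 was the transcription factor whose counts passed the test. The Prdm1 promoter is shown because it was the window, of the 8 that these 7 genes have, with a match to any of 6 motifs searched on both strands. The match is in capitals: the AP-1 motif TGANTCA, 48 bases before the start.
Grhl3 (chr4:135573633-135573882, minus strand): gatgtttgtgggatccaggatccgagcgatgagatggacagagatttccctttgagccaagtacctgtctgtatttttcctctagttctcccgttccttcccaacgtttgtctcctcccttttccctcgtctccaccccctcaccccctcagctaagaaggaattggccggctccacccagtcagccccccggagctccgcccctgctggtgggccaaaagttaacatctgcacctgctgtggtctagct
Prdm1 (chr10:44458749-44458998, minus strand): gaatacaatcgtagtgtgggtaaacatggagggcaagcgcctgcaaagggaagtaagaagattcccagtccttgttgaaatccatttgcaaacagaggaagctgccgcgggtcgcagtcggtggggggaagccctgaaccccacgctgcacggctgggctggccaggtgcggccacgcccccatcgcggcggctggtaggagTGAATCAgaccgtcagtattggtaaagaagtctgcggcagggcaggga
The grainyhead-like motif searched was AACCGGTT, the C/EBP motif TTGCNNAA and the Klf motif GGGTGTGG. For Gata factors the letters were GATAAG. For Ovol factors they were CCGTTA. The search covered only the 250 bases before the start, as printed. In all 32851 promoter windows of this length, AP-1 matches occurred in 6.75%, C/EBP in 9.56%, Gata in 6.55%, Klf in 3.20%, Ovol in 2.18% and grainyhead-like in 0.116%. A match is a string of letters in this window and not an observed binding site.

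Transcript levels per length (CPM per kb of annotated exon) were first set in order in WT skin. Cebpa at 142 ± 11.8 and Klf4 at 133 ± 31.5 CPM per kb (mean ± SD, n = 5) were the most abundant, above 97.7% and 97.5% of the 14572 tested genes with a length. Their ranges overlapped, with Cebpa above Klf4 in 3 of 5 WT columns. Cebpb (58.0 CPM per kb), Grhl1 (48.7 CPM per kb) and Zfp750 (39.04 CPM per kb) followed, each overlapping the next in range. Ovol1 (24.7 CPM per kb), Trp63 (22.5 CPM per kb), Gata3 (21.5 CPM per kb) and Grhl3 (19.5 CPM per kb) formed a run of overlapping neighbours, and Prdm1 was lowest at 11.6 CPM per kb, below every Grhl3 value. No range was shared between Klf4 and Cebpb or between Zfp750 and Ovol1. The length joins all isoforms of a gene, so the level of the long, multi-isoform Trp63 per transcript is uncertain.

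KO was compared with WT to ask whether loss of desmoglein 1 changed these factors. Grhl3 rose 1.70-fold in KO skin and was the single one of the 10 to pass an adjusted p of 0.1 (edgeR quasi-likelihood test, Benjamini-Hochberg over all genes), the threshold at which 0.614% of tested genes were called higher and 0.538% lower. None passed the study's second limit, an absolute log2 fold change of 1, which together with that p called 0.322% of tested genes. All 10 had a fold change above 1, as had 48.6% of tested genes, and their median log2 fold change was 0.33 beside -0.01 over all tested genes. An unadjusted p under 0.05 was found for 5 of the 10 (Grhl3, Ovol1, Grhl1, Klf4 and Zfp750) and for 19.3% of tested genes. KO columns lay wholly above WT columns for 2 of the 10 (Grhl3 and Ovol1) and for 1.61% of tested genes. The count of members past an adjusted p of 0.1 was 5 without WT replicate 4, 3 without KO replicate 5 and 2 without KO replicate 3, and it was 1 without WT replicate 2. The share of all tested genes called in either direction moved too, from 1.15% with all columns to 9.74%, 10.9%, 4.27% and 0.170% in these settings. Without WT replicate 2 the log2 fold change was 0.37 for Grhl1, 0.15 for Trp63 and 0.13 for Prdm1. In the same setting it was 0.29 for Cebpa and 0.22 for Cebpb, and none of these genes was called.

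**Figure D1:**
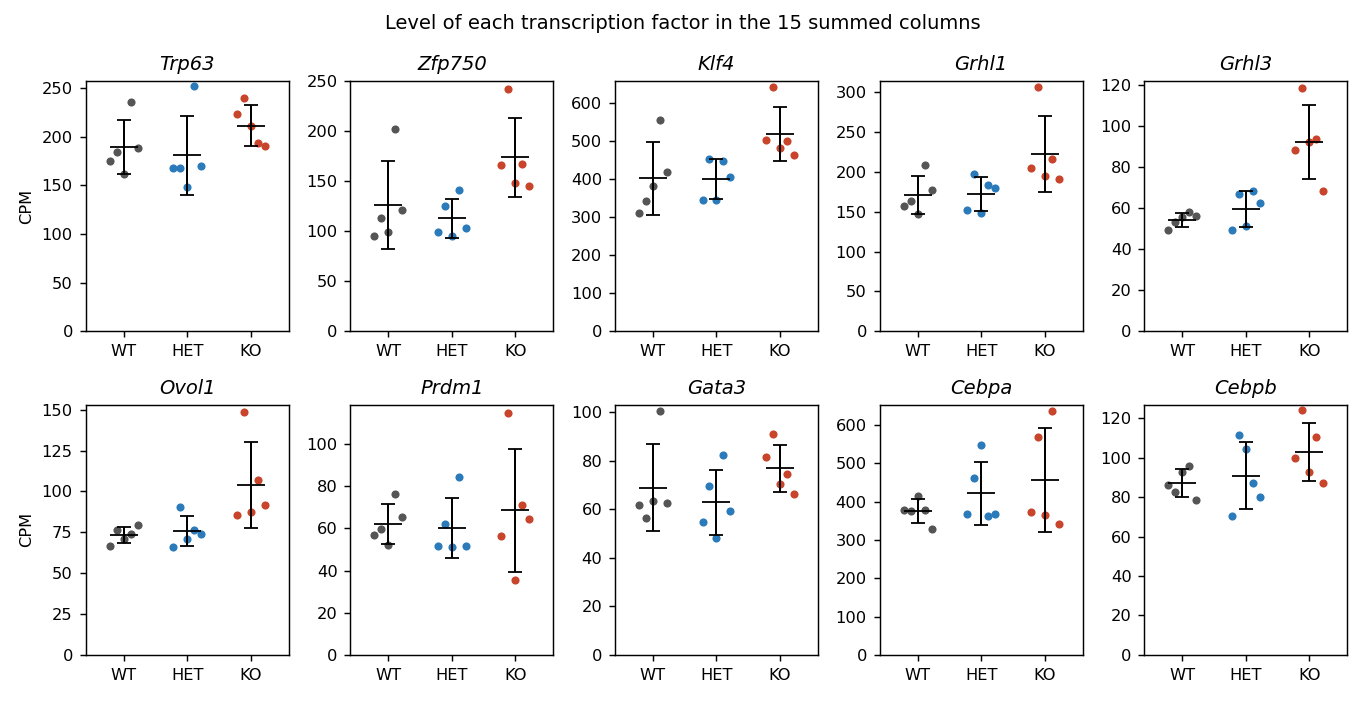
Each panel plots 1 gene, with CPM on the vertical axis from 0 and 5 summed columns per genotype as points, replicates 1 to 5 from left to right; the bars are the mean and SD. KO points lie above all WT points for Grhl3 and Ovol1, and the second KO point is the highest KO value in 9 of 10 panels.

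The grainyhead-like pair was described first. Grhl3 held 49.2, 53.2, 55.6, 58.2 and 56.2 CPM in WT replicates 1 to 5, 49.4, 67.0, 51.2, 68.2 and 62.5 CPM in HET, and 88.3, 119, 92.5, 94.1 and 68.3 CPM in KO. Every KO value exceeded every WT value, and the lowest KO value (replicate 5) was just above the highest HET value. The log2 fold change of KO over WT was 0.76 (SE 0.13, 95% interval 0.49 to 1.03, adjusted p = 0.0184). Without WT replicate 2 it was 0.75 (adjusted p = 0.0728). Within the title series it was 0.72 in series 2 (15 libraries, adjusted p = 0.0221) and 0.88 in series 1 (9 libraries, adjusted p = 0.377). Every title number of series 1 recurs in series 2, so these are not independent estimates. No member was called in series 1. Across 34 alternative settings the adjusted p of Grhl3 stayed at or below 0.1 in 33, with log2 fold changes of 0.56 to 0.88.

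Grhl1 held 157, 163, 148, 208 and 178 CPM in WT replicates 1 to 5, 152, 197, 149, 184 and 179.5 CPM in HET, and 205, 306, 195, 217 and 191 CPM in KO. Only KO replicates 2 and 4 exceeded the highest WT value, so the groups overlapped. Its log2 fold change was 0.38 (SE 0.13, 95% interval 0.10 to 0.67, adjusted p = 0.150), and 0.24 without KO replicate 2. The ratio of Grhl3 to Grhl1 CPM was 0.323 ± 0.0350 in WT, 0.346 ± 0.0169 in HET and 0.417 ± 0.0455 in KO (n = 5 each). The KO ratios (0.357 to 0.475) overlapped the WT ratios (0.280 to 0.377). Grhl2, the third grainyhead-like gene of skin and named here as their paralog after its values were seen, held 36.3 ± 3.53 CPM in WT and 42.7 ± 3.48 CPM in KO (log2 fold change 0.23, adjusted p = 0.316).

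Of the repressors, Ovol1 came nearest to the threshold after Grhl3. Ovol1 held 66.4, 76.1, 70.7, 74.2 and 79.6 CPM in WT replicates 1 to 5, 65.8, 90.3, 71.2, 76.7 and 74.2 CPM in HET, and 85.7, 149, 87.6, 107 and 91.7 CPM in KO. All KO values lay above all WT values, with KO replicate 2 far above the other 4. The log2 fold change was 0.51 (SE 0.13, 95% interval 0.22 to 0.79), with an adjusted p of 0.102, outside the threshold. It was 0.34 (adjusted p = 0.141) without KO replicate 2 and 0.52 (adjusted p = 0.219) without WT replicate 2. The adjusted p fell within 0.1 in 9 of 34 alternatives, among them without WT replicate 4 (0.0657), without KO replicate 3 (0.0726) and without KO replicate 5 (0.0536). Ovol1 shares 690 exonic bases with Gm31166 and 76 with AC126029.1 on the opposite strand (GENCODE vM21), and the strand setting of the counting is not given in the sources used here. Ovol2, its paralog and likewise named after its values were seen, was scarce, at 5.999 ± 1.12 CPM in WT and 5.22 ± 1.20 CPM in KO (adjusted p = 0.551).

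Prdm1 (Blimp-1), which represses transcription in the granular layer, was the most variable of the 10 in KO skin. It held 56.5, 115, 35.7, 71.1 and 64.7 CPM in KO replicates 1 to 5, against 52.0 to 76.4 CPM in WT and 51.0 to 84.6 CPM in HET. The KO group thus held both the highest and the lowest of the 15 values. Its coefficient of variation in KO was 42.4%, where the median of the 10 genes was 20.4%. Its fitted log2 fold change was 0.14 (95% interval -0.36 to 0.65, adjusted p = 0.757), and -0.12 without KO replicate 2.

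The KO and WT ranges of Trp63, Zfp750 and Klf4 overlapped, and none of the 3 passed an adjusted p of 0.1 in KO vs WT. Trp63 held 162 to 235 CPM in WT (median 184), 148 to 252 CPM in HET (median 167) and 189.9 to 239.6 CPM in KO (median 211). Its log2 fold change was 0.16 (SE 0.13, 95% interval -0.12 to 0.44, adjusted p = 0.508). Zfp750 held 94.8, 114, 98.8, 203 and 121 CPM in WT replicates 1 to 5, 99.0, 126, 95.6, 141 and 103 CPM in HET, and 166, 242, 149, 168 and 145 CPM in KO. WT replicate 4 stood apart from the other WT columns, all of which lay below every KO value. The log2 fold change of Zfp750 was 0.46 (SE 0.20, 95% interval 0.04 to 0.89, adjusted p = 0.225). Without WT replicate 4 it was 0.70 (adjusted p = 0.0486), and without WT replicate 2 it was 0.43 (adjusted p = 0.370). Leaving out KO replicate 2 gave 0.31 (adjusted p = 0.384).

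Klf4, a zinc finger factor required for the skin barrier, held 309.9, 343, 383, 557 and 419.9 CPM in WT replicates 1 to 5 and 504, 642, 483, 501 and 464 CPM in KO. HET values ran from 346 to 453 CPM. As for Zfp750, WT replicate 4 was the WT column that reached into the KO range. The log2 fold change of Klf4 was 0.37 (SE 0.14, 95% interval 0.06 to 0.67, adjusted p = 0.192), and 0.51 (adjusted p = 0.0497) without WT replicate 4. It was 0.28 (adjusted p = 0.327) without KO replicate 2 and 0.31 (adjusted p = 0.355) without WT replicate 2. Relative to Trp63, the ratio of Klf4 CPM was 2.12 ± 0.284 in WT, 2.26 ± 0.348 in HET and 2.45 ± 0.186 in KO. The ratio of Zfp750 to Trp63 was 0.654 ± 0.122 in WT, 0.631 ± 0.0736 in HET and 0.819 ± 0.124 in KO. Both ratios overlapped between KO and WT.

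**Figure D2:**
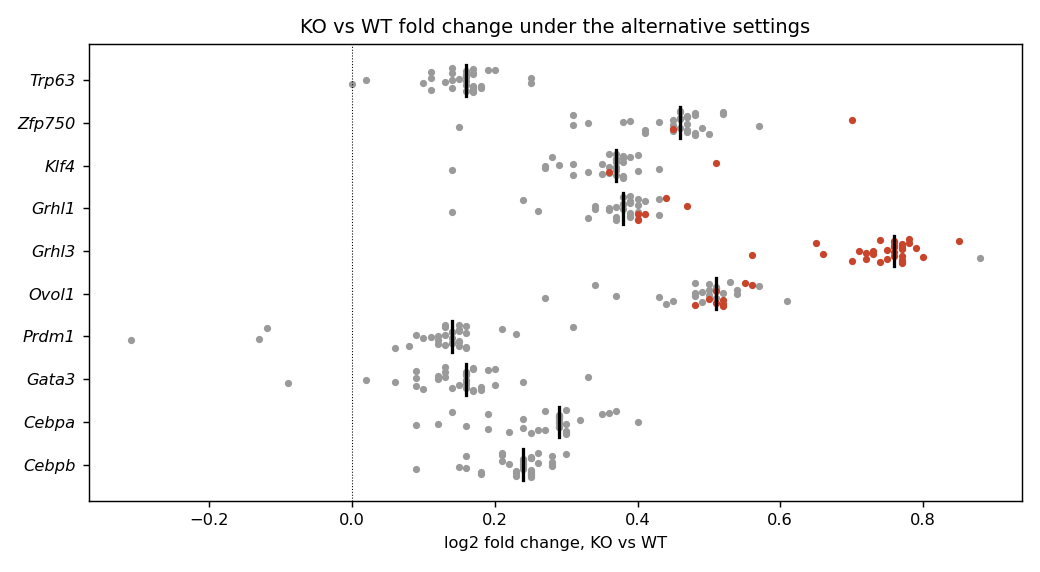
The horizontal axis is the log2 fold change of KO over WT; each row is 1 gene, the black line the value reported and each point 1 of 34 alternative settings, red where the adjusted p was 0.1 or below. Grhl3 is red in 33 of 34 settings (0.56 to 0.88), while Prdm1 and Gata3 have points on both sides of 0.

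Gata3 held 56.7 to 101 CPM in WT (median 62.5), 48.02 to 82.4 CPM in HET (median 59.4) and 66.4 to 91.0 CPM in KO (median 74.7). WT replicate 4 was its highest value of all 15. KO over WT, the log2 fold change was 0.16 (95% interval -0.19 to 0.50, adjusted p = 0.609), and 0.33 (adjusted p = 0.155) without WT replicate 4. It was 0.09 (adjusted p = 0.813) without KO replicate 2 and 0.09 (adjusted p = 0.811) without WT replicate 2. Gata3 is also expressed in T and innate lymphoid cells. Of 10 marker genes of those cells, 9 were tested and none passed an adjusted p of 0.1. Their summed level was 27.3 to 37.7 CPM in WT, 26.9 to 33.5 CPM in HET and 21.4 to 42.2 CPM in KO. Of the 9, 6 had a fold change above 1 in KO vs WT, with log2 fold changes of -0.54 to 0.59 and a median of 0.03. None of the 10 markers was at 0 in any column.

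Cebpa held 378, 377, 415, 379 and 328 CPM in WT replicates 1 to 5, 369, 461, 549, 364 and 368 CPM in HET, and 374, 569, 364, 637 and 342 CPM in KO. The 3 highest values were KO replicate 4, KO replicate 2 and HET replicate 3, and the other KO columns lay within the WT range. In KO vs WT the log2 fold change was 0.29 (SE 0.17, 95% interval -0.07 to 0.65, adjusted p = 0.356), and 0.14 without KO replicate 4. Cebpa is also a core factor of adipocytes. The same 3 columns had the highest sum of 10 adipocyte markers, at 7041 CPM in KO replicate 4, 5101 CPM in HET replicate 3 and 2386 CPM in KO replicate 2, against 627 to 1644 CPM in the other 12. All 10 adipocyte markers had a log2 fold change above 0 (median 1.54) and none passed an adjusted p of 0.1. None was at 0 in any column. The part of adipocytes in the Cebpa values was not tested.

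Cebpb held 78.5 to 95.9 CPM in WT (median 86.2), 70.6 to 112 CPM in HET (median 87.2) and 87.3 to 124 CPM in KO (median 100.02). Its log2 fold change was 0.24 (SE 0.12, 95% interval -0.02 to 0.50, adjusted p = 0.292). The ratio of Cebpb to Cebpa was 0.233 ± 0.0137 in WT, 0.216 ± 0.0253 in HET and 0.234 ± 0.0383 in KO. Cebpb shares 312 exonic bases with Tmem189 on the opposite strand, a gene with 10102 counts over all libraries where Cebpb had 35644.

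**Figure D3:**
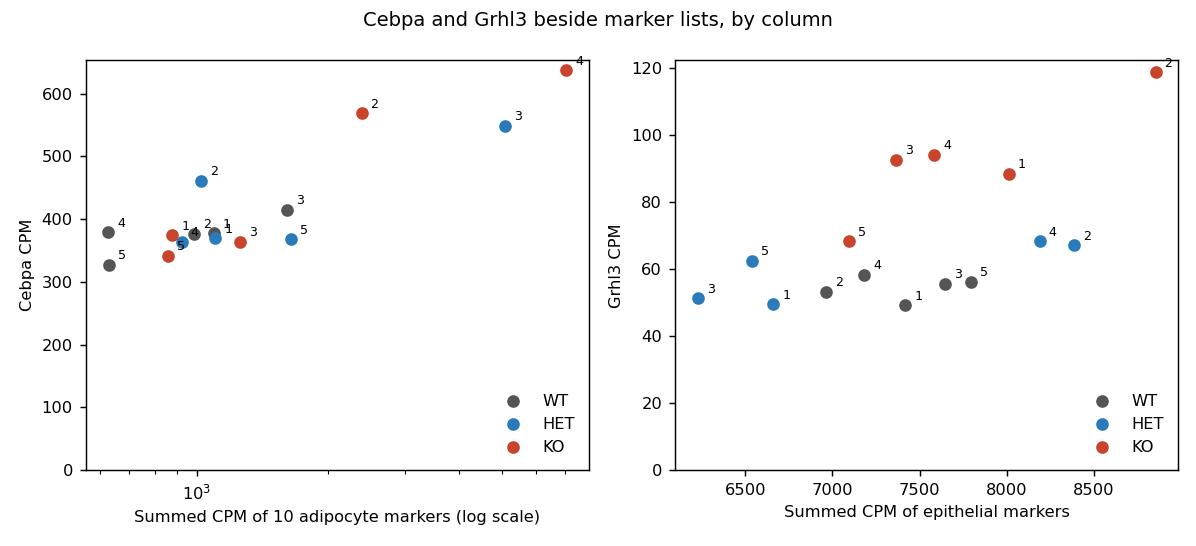
Left, Cebpa CPM against the summed CPM of 10 adipocyte markers (log scale); right, Grhl3 CPM against the summed CPM of 16 epithelial markers; each point is 1 summed column, labelled by replicate number and coloured by genotype. The 3 columns with the most adipocyte marker RNA (2386 to 7041 CPM) have the most Cebpa, and KO columns lie above WT columns in Grhl3 where the epithelial sums of the 2 genotypes overlap. Most of the epithelial sum is Krt5 and Krt14.

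HET skin was compared with WT to ask whether loss of 1 Dsg1 copy had an effect. None of the 10 genes passed an adjusted p of 0.1 (adjusted p of 0.9998 for each), a threshold that 0.0% of tested genes passed as higher in HET. The 2 tested genes of the deleted cluster did not pass it either, with log2 fold changes of -0.94 and -0.92 (smallest adjusted p = 0.135). A lack of calls in HET therefore does not show that a gene was unchanged. None had an unadjusted p under 0.05, against 1.58% of tested genes, and DESeq2 and limma-voom called none of the 10 either. A fold change above 1 was found for 5 of 10, against 50.9% of tested genes. Log2 fold changes ran from -0.16 (Zfp750, 95% interval -0.59 to 0.26) to 0.17 (Cebpa, 95% interval -0.19 to 0.53). That of Grhl3 was 0.13 (95% interval -0.14 to 0.40), and 3 HET values lay above all WT values.

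KO skin was also compared with HET skin, using the same KO columns as above. Grhl3 rose 1.55-fold (log2 fold change 0.63, SE 0.13, 95% interval 0.36 to 0.90, adjusted p = 0.0733), at a threshold that called 0.146% of tested genes as higher in KO. This call was lost in 12 of 34 alternatives, among them without HET replicate 1 (adjusted p = 0.227), 3 (0.199) or 5 (0.152), without KO replicate 1 (0.144) or 4 (0.143), and without WT replicate 2 (0.117) or 3 (0.111). All 10 genes had a fold change above 1 (49.3% of tested genes) and 5 an unadjusted p under 0.05 (16.0% of those tested). KO columns lay wholly above HET columns for Grhl3, Klf4 and Zfp750, and for 0.954% of tested genes. For Zfp750 the log2 fold change was 0.63 (SE 0.20, 95% interval 0.20 to 1.05, adjusted p = 0.181) and Klf4 of 0.38 (SE 0.14, 95% interval 0.07 to 0.68, adjusted p = 0.233).

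**Figure D4:**
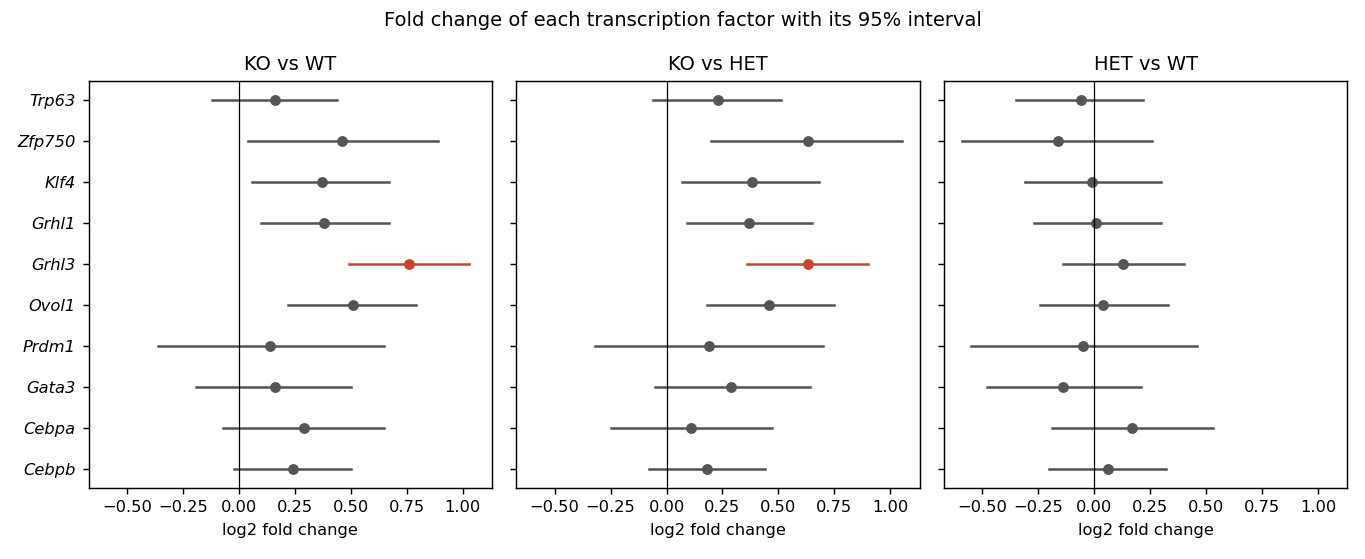
Log2 fold change (horizontal axis) of each gene in KO vs WT, KO vs HET and HET vs WT; points are edgeR estimates from 5 columns per genotype, lines their 95% intervals, and red marks an adjusted p of 0.1 or below. Grhl3 is red in both comparisons with KO (0.76 and 0.63), and all 10 intervals of HET vs WT include 0.

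The wider network was described by 3 lists of genes, without a test of the lists themselves. Of 43 other epidermal regulators, none passed an adjusted p of 0.1 in KO vs WT. A fold change above 1 was found for 32 of them (48.6% of tested genes), the median log2 fold change was 0.19, and 13 had an unadjusted p under 0.05 (19.3% of tested genes). Closest to the threshold were Ppard (a lipid-sensing nuclear receptor of keratinocytes, log2 fold change 0.41, adjusted p = 0.102) and the histone deacetylase Hdac1 (log2 fold change -0.20, adjusted p = 0.123). DESeq2 called 10 of the 43 and 8.29% of all tested genes.

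Among 23 genes of the differentiated layers, most but not all of them known targets of these factors, 2 rose and none fell. The threshold called 0.614% of tested genes higher and 0.538% lower. Ivl, encoding the cornified envelope protein involucrin, held 482 to 576 CPM in WT, 601 to 722 CPM in HET and 624 to 1143 CPM in KO. Its log2 fold change was 0.76 (SE 0.13, adjusted p = 0.0231), equal to that of Grhl3 at 2 decimals, and it remained called without WT replicate 2 (0.75, adjusted p = 0.0875). For Dsc1, encoding the desmosomal cadherin desmocollin 1, the value was 0.64 (SE 0.15, adjusted p = 0.0915), which lost its call without WT replicate 2 (0.60, adjusted p = 0.215) and in 17 other alternatives. A fold change above 1 was found for 20 of the 23 (48.6% of tested genes), and the median log2 fold change was 0.39. The transglutaminase genes Tgm5 (0.52, adjusted p = 0.102) and Tgm1 (0.41, adjusted p = 0.169), named after their values were seen, did not pass. The count of called differentiation genes was 10 without WT replicate 4, 7 without KO replicate 3, 5 without KO replicate 5 and 4 without HET replicate 4. These settings called 9.74%, 4.27%, 10.9% and 2.15% of all tested genes, against 1.15% with all columns. The count was 1 without each of 9 other columns (0.170% to 0.485% of all tested genes).

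Of 16 basal genes, among them known p63 targets, 14 had a fold change above 1, as had 48.6% of tested genes, and none passed (median log2 fold change 0.14). Itga6, the alpha 6 integrin of hemidesmosomes (0.33, adjusted p = 0.150), and Pkp1, the desmosomal plaque protein plakophilin 1 (0.35, adjusted p = 0.223), had the smallest p.

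Markers of the cell types in the skin were set beside these results. Of 16 epithelial markers, 14 had a fold change above 1 in KO vs WT (median log2 fold change 0.23) and none passed an adjusted p of 0.1. Their sum was 6964 to 7797 CPM in WT, 6226 to 8385 CPM in HET and 7095 to 8854 CPM in KO, and none was at 0 in any column. Most of this sum was Krt5 (mean 2977 CPM in WT and 3039 CPM in KO) and Krt14 (2395 and 2258 CPM), so it follows these basal keratins more than the other markers. The epithelial covariate was a different measure, the mean log2(CPM + 1) of the markers without Krt5, Krt14 and Itgb4, which are also among the basal genes. With that covariate, the log2 fold change of Grhl3 was 0.56 (adjusted p = 0.0114) and that of Ovol1 0.27 (adjusted p = 0.321). Under that covariate Klf4 stood at 0.14, Grhl1 at 0.14, Zfp750 at 0.15, Trp63 at 0.00, Gata3 at -0.09 and Prdm1 at -0.31 in KO vs WT, none of them past the threshold. In KO vs HET, Grhl3 had a log2 fold change of 0.40 under it and lost its call (adjusted p = 0.116). Expressed per 1000 CPM of the sum of all 16 epithelial markers, and so mostly per Krt5 and Krt14, Grhl3 was 7.37 ± 0.545 in WT, 8.30 ± 0.781 in HET and 11.8 ± 1.49 in KO. The KO values of 9.62 to 13.4 were all above the WT values of 6.63 to 8.10. For Trp63 the same measure was 25.6 ± 4.41 in WT and 27.2 ± 1.22 in KO.

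Dermal fibroblast markers (1 of 12 with a fold change above 1, median log2 fold change -0.18) and skeletal muscle markers (1 of 10, median -0.19) ran the other way, with none past an adjusted p of 0.1. With the fibroblast level as a covariate the log2 fold change of Grhl3 was 0.73 (adjusted p = 0.0746), with the muscle level 0.66 (adjusted p = 0.00871) and with the Y-linked level 0.72 (adjusted p = 0.0417). Myeloid (5 of 12), endothelial (7 of 10) and hair follicle markers (7 of 9 tested) had medians of -0.05, 0.06 and 0.15, with none past the threshold. Of all these markers, Krt72 of the hair follicle was at 0 in 3 columns and the others in none. Individual columns stood out across the 10 genes. For 9 of 10, KO replicate 2 was the top KO column, and it had the highest epithelial marker sum and the lowest muscle marker sum of all 15 columns (8854 and 10020 CPM). WT replicate 4 was the highest WT column for 8 of 10 and had the lowest muscle marker sum of the WT columns (12970 CPM). Its epithelial marker sum (7183 CPM) lay within the range of the other WT columns, and its fibroblast sum (40756 CPM) was the highest of all 15 columns. By the epithelial covariate, a mean of log2 values, it was the highest WT column (7.136). KO replicate 5 was the lowest KO column for 8 of 10.

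The genes whose levels most resembled those of Grhl3, Ovol1 and Grhl1 across the 15 columns were listed as a description, from 13543 genes with a mean of at least 50 counts. The measure was Pearson's r of log2(CPM + 1), and the columns share genotype and tissue makeup. Grhl3 was most like Atp10b (r = 0.963), a phospholipid-transporting ATPase, Oxsr1 (r = 0.956), a stress-responsive kinase, and Zdhhc3 (r = 0.948), a palmitoyltransferase. Ovol1 was most like Lrrc8e (r = 0.955), a volume-regulated anion channel subunit, Tmem79 (r = 0.947), which encodes the lamellar granule protein mattrin, and Cers3 (r = 0.941), a ceramide synthase of the barrier and 1 of the 23 differentiation genes above. Grhl1 was most like Slc34a2 (r = 0.977), a phosphate transporter, and Tollip and Slc37a2 (r = 0.970 each).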

How the data were processed

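RNA-Seq gene counts of 24 mouse skin libraries were analysed. Per the labels, libraries were prepared from poly(A) RNA with a directional kit. The deposited values are raw counts per gene symbol, made by the authors. The submitters' processing notes name STAR and HTSeq, without versions, and the build hg19, although the symbols are of mouse; the mouse build, annotation and strand setting are not given in the sources used here.

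Libraries sharing genotype and title number were summed to 15 columns, and no sample was dropped or imputed. The title numbers of the genotypes differ, so columns were not paired. Genes were kept by filterByExpr (17094), scaled by TMM and fitted in edgeR 4.0.16 (R 4.3.3; quasi-likelihood, robust, all 3 genotypes in 1 fit); p-values were Benjamini-Hochberg adjusted over all genes tested. Levels are in CPM, computed with the TMM-adjusted depth of each column. DESeq2 1.42.0, limma-voom (limma 3.58.1), other scalings, filters, subsets, covariates and leaving out each column were alternatives. On simulated counts for KO vs WT with 200 genes changed 4-fold, the edgeR test recovered 198 with 4 false calls among 16938 genes. The largest change of a member was 1.7-fold, so this run does not measure recovery at the changes reported. Intervals cover the fitted spread at a confidence level of 95%.

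The members and lists were chosen with earlier results of these data known. By rule the text names all 10 members, the genes of each other list with an adjusted p of 0.1 or below (otherwise the 2 with the smallest p), and the 3 genes most like each of the 3 members with the smallest p. Lengths and overlaps come from GENCODE vM21, promoters from RefSeq.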

Additional observations from a re-analysis of the deposited data

Results flagged for a closer look

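Within the 5 columns of a genotype, a value was picked out where its gap to the nearest other value, divided by the range of the group, exceeded Dixon's critical value of 0.71. Of 54 groups examined (10 transcription factors and 8 marker lists in 3 genotypes), 8 met this rule, where chance gives about 1 in 20. KO replicate 2 stood above the other KO columns for Klf4 (642 CPM against 464 to 504, gap 0.777 of the range), Grhl1 (306 CPM against 191 to 217, gap 0.778) and Zfp750 (242 CPM against 145 to 168, gap 0.768). WT replicate 4 stood above the other WT columns for Gata3 (101 CPM against 56.7 to 63.5, gap 0.844) and Zfp750 (203 CPM against 94.8 to 121, gap 0.758). HET replicate 4 stood above the other HET columns for Trp63 (252 CPM against 148 to 170, gap 0.794). The adipocyte marker sum stood out in HET replicate 3 (5101 CPM against 924 to 1644, gap 0.828) and in KO replicate 4 (7041 CPM against 858 to 2386, gap 0.753). Their cause was not tested.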

How the results depend on the processing

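Counts are of genes at an adjusted p of 0.1 or below, out of 10 members, 43 other regulators, 23 differentiation and 16 basal genes; causes of the changes were not tested. For members in KO vs WT (reported count 1) the count was 5 with 24 separate libraries, 3 with DESeq2 and with WT number 35 as 2 columns, 2 with limma-voom, RLE factors or no filter, and 0 in title series 1 alone; leaving out 1 column gave 1 to 5. The same settings called 23.7% (24 libraries), 8.29% (DESeq2), 7.18% (WT number 35 as 2 columns), 2.96% (limma-voom), 2.11% (RLE factors), 0.613% (no filter) and 0.0186% (title series 1 alone) of all tested genes in KO vs WT, against 1.15% as reported. In KO vs HET (reported 1) it was 7 with 24 libraries and 3 with DESeq2 (24.6% and 4.57% of all tested genes, against 0.333% as reported). It was 0 at an adjusted p of 0.05 (0.0702%), in title series 1 alone (0.0186%) and with only the 2 genotypes (0.0183%). It was also 0 with the epithelial (0.702%), fibroblast (0.0293%) or transcript length covariate (0.0234%). Leaving out 1 column gave 0 to 2, where 0.0586% to 5.44% of all tested genes were called. In HET vs WT it was 0 in all 35 alternatives. For other regulators (reported 0) it was 19 with 24 libraries, 10 with DESeq2, 8 with WT number 35 as 2 columns, and 1 with limma-voom, RLE factors, no filter, title series 2 alone or without the series 1 library of WT number 35 (0 to 13 without 1 column). The last 2 of these settings each called 2.34% of all tested genes in KO vs WT, and leaving out 1 column called 0.170% to 10.9%. For differentiation genes (reported 2) it was 15 with 24 libraries, 7 with DESeq2 and with WT number 35 as 2 columns, and 4 in title series 2 alone (1 to 10 without 1 column). It was 1 at an adjusted p of 0.05 (0.246% of all tested genes) and with the Y-linked (0.269%), both-series (0.486%) or length covariate (0.357%). It was also 1 without the series 2 library of WT number 35 (0.455%). In title series 1 alone (0.0186%), with only the 2 genotypes (0.146%) or with the fibroblast covariate (0.216%) it was 0. For basal genes (reported 0) it was 4 with 24 libraries and 1 with DESeq2 and with WT number 35 as 2 columns (0 to 3 without 1 column). The log2 fold change in KO vs WT changed sign for Prdm1 with the epithelial (-0.31) or muscle covariate (-0.13) and without KO replicate 2 (range without 1 column -0.12 to 0.31), and for Gata3 with the epithelial covariate (-0.09); for the other 8 members it stayed at or above 0 in all 34 alternatives. The 2 settings that drop a single library of WT number 35 were chosen after seeing the data. No paired analysis was possible because the genotypes share no title number. With 5 columns per genotype, the 95% interval of a member outside the threshold still spans, for Prdm1, -0.36 to 0.65 on the log2 scale.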
